A study of Mus musculus with 6 samples.

Results

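The kinases described here stand around ERK1 and ERK2 in the MAP kinase network of ovarian granulosa cells. They were chosen by gene symbol from the platform annotation, 9 genes in all. Braf, Map2k1 (MEK1) and Map2k2 (MEK2) act upstream of ERK1/2, Mapk7 (ERK5), Mapk14 (p38 alpha) and Mapk8 (JNK1) are parallel MAP kinases, and Rps6ka1, Rps6ka2 and Rps6ka3 are RSK kinases downstream. Of the 9, 7 had a probe set and are described, out of 18194 genes in the table. Rps6ka1 and Rps6ka2 were not analysed here, so the RSK family is represented by Rps6ka3 (RSK2) alone.

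RNA came from granulosa cells of mice aged 23 days that had all received 5 IU of equine chorionic gonadotropin (eCG), a hormone that drives follicle growth, 48 h earlier. Knockout mice lacked ERK1 and carried the alleles ERK2 fl/fl with the transgene Cyp19CRE, and the other mice were labelled wild type with no allele or transgene named. A Cyp19 promoter drives Cre in granulosa cells, so ERK2 is deleted there while ERK1 is missing from the whole animal. Cells were collected without human chorionic gonadotropin (hCG), or at 2.5 h and 4 h following an injection of 5 IU, and each genotype and time had 1 array. The labels name no replicates and do not say how many animals an array holds.

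In a MAP kinase cascade, an activated RAF kinase phosphorylates the MEK kinases, which phosphorylate ERK1 and ERK2, and these in turn activate RSK and other kinases. In granulosa cells the surge of luteinizing hormone, for which hCG stands in, raises cAMP and switches this cascade on within the follicle through EGF-like ligands and RAS. ERK5, p38 and JNK have MEK kinases of their own and answer mainly to growth factors, stress and cytokines. All of these kinases are controlled chiefly by phosphorylation, which RNA arrays do not measure. The comparisons ask whether the transcripts of the kinases differed where ERK1/2 was missing, and whether they differed after hCG.

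Values are array intensities from RMA, a method that gives 1 value per probe set, on a linear scale. Each gene is represented by its probe set with the highest mean log2 value over the 6 arrays. A log2 mean of 6, intensity 64, was taken as the floor over which signal is told from background, and 11153 genes, the 7 kinases among them, lay over it. A gene counted as different between a pair of arrays when the log2 difference had a size of 1 or more, that is 2-fold, and the brighter array reached the floor. With 1 array per group this rule has no replicate error and gives no p-value, and the number of arrays limits the precision.

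The targeted ERK genes were not analysed here, and the genotype labels therefore have no check of that kind. Granulosa cell markers were bright on all arrays, with a summed intensity of 150493 to 175177 in knockout and 96422 to 156062 in wild type over 11 genes, among them the FSH receptor gene Fshr. The summed intensity of 11 oocyte markers was 34554 in knockout and 18475 in wild type with no hCG, and between 11431 and 14664 on the other 4 arrays. RNA integrity was read from Gapdh as the signal at its 3' end over that at its 5' end, which was 3.99 to 5.21 in knockout and 3.55 to 4.79 in wild type. It was highest with no hCG, at 5.21 in knockout and 4.79 in wild type, and 3.55 to 4.24 on the arrays after hCG. The ratio thus differed along the hCG comparison. It was also higher in knockout than in wild type at each time, with 3.99 against 3.55 at 2.5 h and 4.24 against 4.01 at 4 h. Its part in the hCG differences and in the genotype differences was not tested. In RNA from a mixed preparation, fewer cells of a type and less RNA per cell cannot be told apart. The median log2 difference of all genes over the floor was 0.14 at 2.5 h and 0.20 at 4 h between knockout and wild type, and -0.22 and -0.21 between wild type with and without hCG. Member values are set against these medians.

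By their brightest probe sets the kinase transcripts differed little, which also held for the typical gene over the floor. Between genotypes, the median size of the members' log2 differences was 0.12, 0.24 and 0.35 at the 3 times. Over all genes it was 0.16, 0.24 and 0.33. Of 49 pairs of a gene and a comparison (7 genes, 3 comparisons between genotypes and 4 between hCG and no hCG), 47 lay under 1.5-fold and 1 met the 2-fold rule. The pair was Mapk7 at 2.5 h, with an intensity of 469 in knockout against 233 in wild type. The other pair over 1.5-fold was Mapk7 at 4 h. A dimmer probe set of Rps6ka3, not counted here, was 2.6-fold lower in knockout than in wild type at 4 h. In wild type it was 2.31-fold higher at 4 h than with no hCG. Over the 6 arrays, the range of the 7 genes was 0.40 to 1.01 on the log2 scale, and the median range of genes over the floor was 0.68. The plot of intensities by time shows the flat course of most members.

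**Figure D1:**
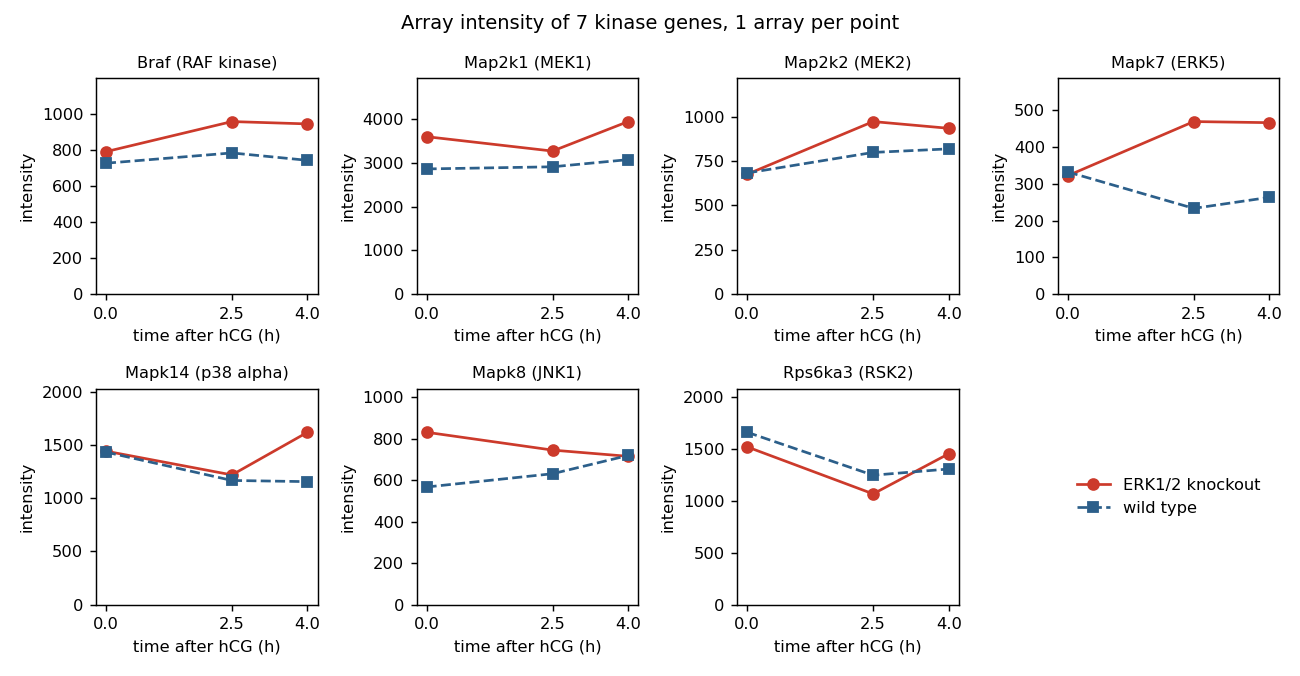
Array intensity (linear scale, from 0) of 7 kinase genes against time after hCG in hours, with knockout as red circles and wild type as blue squares, 1 array per point. Mapk7 starts at 322 in knockout and 332 in wild type and stands at 469 in knockout and 233 in wild type at 2.5 h; the other genes stay within 1.56-fold over all 6 arrays.

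Mapk7 encodes ERK5, a large MAP kinase with a transcriptional activation domain that is switched on by MEK5. Its single probe set (1418060_a_at) read 322, 469 and 466 in knockout with no hCG, at 2.5 h and at 4 h, against 332, 233 and 263 in wild type. The genotypes were alike with no hCG and stood apart at both times after it, with knockout above its own starting value and wild type below. The log2 difference, knockout minus wild type, was -0.04 with no hCG, 1.01 (2.01-fold) at 2.5 h and 0.83 (1.77-fold) at 4 h.

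Relative to no hCG, Mapk7 was 1.46-fold higher at 2.5 h and 1.45-fold higher at 4 h in knockout. In wild type it was 1.42-fold and 1.26-fold lower, with log2 differences of -0.51 and -0.34 that were -0.34 and -0.15 with cyclic loess and -0.33 and -0.10 with centred arrays. Of genes over the floor, 4.08% differed at 2.5 h between genotypes by at least as much as Mapk7, and 12.6% at 4 h. The call at 2.5 h sits at the edge of the rule. With each array centred on its median over genes the log2 difference was 0.89, with cyclic loess 0.88 and with 16 added to each intensity 0.96, all short of 1.

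A limma fit of time and genotype over all 6 arrays gave Mapk7 a genotype difference of 0.60 (log2, SE 0.23) over the 3 times, higher in knockout at 2 of 3, with an adjusted p of 0.272 after Benjamini-Hochberg adjustment. Without the pair of arrays with no hCG, limma gave 0.92 (SE 0.14) and an adjusted p of 0.0465, and 471 of 11153 genes passed. The pair left out is that in which Mapk7 was alike between genotypes (log2 -0.04). The residual of that fit for Mapk7 is only the gap between its differences at 2.5 h (1.01) and 4 h (0.83). The range of the adjusted p over 8 alternatives was 0.0465 to 0.87. What such a fit takes as error is how a difference varies from time to time, and not the spread between animals.

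Another fit compared the hCG responses of the genotypes, with the arrays at 2.5 h and 4 h taken as repeats. Its residual comes from those arrays alone, and limma moderates it with a prior taken from all genes tested. Both times are set against the same arrays with no hCG. The values at 2.5 h and 4 h are therefore not independent. The difference between the responses was 0.96 (SE 0.24) for Mapk7. Its limma adjusted p was 0.535, and knockout was above wild type in this respect at both times (1.05 at 2.5 h and 0.87 at 4 h). By this test 0 of 11153 genes passed (0%), while 1015 had an unadjusted p under 0.05.

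Markers of other cells differed between the arrays on which Mapk7 differed. The 5 theca cell markers summed to 15847 at 2.5 h and 16058 at 4 h in knockout, against 4342 and 3728 in wild type, and with no hCG to 5720 in knockout and 5877 in wild type. Cyp17a1, the androgen-forming enzyme of theca cells, read 14251 and 13997 in knockout against 2037 and 1399 in wild type after hCG, and 1 of 4 theca markers over the floor was at least 2-fold higher in knockout at 2.5 h and 2 at 4 h. Cyp17a1 thus made up most of the sum, and 2 of the 4, Ptch1 (1060 and 1540 in knockout against 1789 and 1868 in wild type) and Nr2f2 (416 and 366 in knockout against 439 and 393 in wild type), were lower in knockout at both times. Gli1, a hedgehog target of theca cells, stayed under the floor on all arrays. Among 8 surface epithelium markers, 1 (Krt7, 2.93-fold) was at least 2-fold higher in knockout with no hCG, where Mapk7 was alike, 2 were at 2.5 h and 3 at 4 h. Their sums at the 3 times were 3250, 3852 and 4166 in knockout against 3037, 2921 and 3336 in wild type. Of these 8 markers, 5 were higher in knockout with no hCG, 6 at 2.5 h and 6 at 4 h, and the rest were lower. Wt1 was 1.70-fold lower in knockout at 2.5 h and 1.57-fold lower at 4 h, and Krt18 was 1.51-fold lower at 4 h. Of 11 granulosa markers, 2 and 5 were at least 2-fold higher in knockout. Of 4 endothelial markers over the floor, 2 were at least 2-fold lower in knockout at 2.5 h and 0 at 4 h, with Pecam1, Tek, Tie1 and Emcn under the floor, and of 8 macrophage markers 0 differed by this much. The red blood cell marker Alas2 read 193 and 227 in knockout against 516 and 536 in wild type at 2.5 h and 4 h, 2.67-fold and 2.36-fold lower in knockout, and Hba-a1 was under the floor. The part of these cells in the Mapk7 values was not tested.

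Because hCG acts through cAMP, the promoters of the members were searched for the cAMP response element (CRE), and 2 are shown. The first is that of Mapk7, the member that met the 2-fold rule, and the second that of Braf, the member that holds a full CRE. Both are the 250 bases up to the annotated start, 5′ to 3′ on the minus strand of build GRCm38.p6, from RefSeq, at chr11:61494267-61494516 for Mapk7 and chr6:39725464-39725713 for Braf. Capitals mark CCAAT and GC boxes in Mapk7 and full CREs in Braf.
Mapk7: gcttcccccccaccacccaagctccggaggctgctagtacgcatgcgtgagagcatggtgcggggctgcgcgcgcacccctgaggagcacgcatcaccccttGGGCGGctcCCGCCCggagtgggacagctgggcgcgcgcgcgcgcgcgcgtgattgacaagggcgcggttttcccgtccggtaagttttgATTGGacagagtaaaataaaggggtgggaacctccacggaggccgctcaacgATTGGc
Braf: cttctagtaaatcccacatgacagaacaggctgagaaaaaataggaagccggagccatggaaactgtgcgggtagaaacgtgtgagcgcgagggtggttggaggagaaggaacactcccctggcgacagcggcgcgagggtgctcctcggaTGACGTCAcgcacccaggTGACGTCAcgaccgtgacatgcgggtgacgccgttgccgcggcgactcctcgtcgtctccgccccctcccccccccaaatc

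Of the 7 measured members, 6 had an entry in the promoter table, and of 2 windows listed for Mapk7 the first is shown. The full CRE, TGACGTCA, occurred 2 times in the Braf window and is held by 1.55% of 32851 promoter windows of the same length, both strands searched. The Mapk7 window shown held 0 full CREs, 0 CRE half-sites (TGACG, in 17.8% of windows, contained in the full CRE and found 5 times in Braf), 0 EGR motifs (GCGNGGGCG, in 4.7%) and 0 AP-1 motifs (TGANTCA, in 6.75%). It held 2 CCAAT boxes (CCAAT, in 33.8%) and 2 GC boxes (GGGCGG, in 32.7%). Such matches describe these letters in these windows and do not show binding.

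Upstream of ERK1/2, Braf encodes a RAF kinase that phosphorylates MEK1 and MEK2. Its brightest probe set (1435434_at) read 790, 957 and 944 in knockout and 726, 783 and 742 in wild type at the 3 times. Knockout was above wild type at each time, by 1.09-fold, 1.22-fold and 1.27-fold. After hCG it stood 1.21-fold and 1.19-fold above no hCG in knockout, and 1.08-fold and 1.02-fold above it in wild type. The genotypes were close in this respect with the other scalings. With cyclic loess the log2 differences from no hCG were 0.28 and 0.21 in knockout and 0.30 and 0.23 in wild type. Centred arrays gave 0.32 and 0.27 in knockout and 0.29 and 0.27 in wild type.

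Braf has 3 probe sets over the floor, and they did not follow each other. The dimmest of them (1456505_at) read 227, 204 and 201 in knockout against 133, 234 and 226 in wild type. By that probe set the wild type array with no hCG stood apart from all others. It gave a log2 difference between genotypes of 0.77 with no hCG and -0.20 and -0.17 after it. The sign of the difference was shared by all 3 probe sets in 2 of 7 comparisons, knockout over wild type with no hCG being 1 of them.

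Map2k1 encodes MEK1, a direct activator of ERK1 and ERK2. Its only probe set (1416351_at) read 3606, 3276 and 3952 in knockout and 2867, 2916 and 3080 in wild type. All 3 knockout values lay above all 3 wild type values, by 1.26-fold, 1.12-fold and 1.28-fold at matched times. The log2 differences were 0.33, 0.17 and 0.36, and at 2.5 h the sign turned with the scaling (-0.04 with cyclic loess, 0.04 with centred arrays). Over the 3 times, limma gave 0.29 (log2, SE 0.13) with an adjusted p of 0.318.

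Within each genotype, Map2k1 stayed close to its value with no hCG. It was at most 1.10-fold away in knockout and 1.07-fold in wild type. With no hCG, 21.5% of genes over the floor differed between genotypes by at least as much as Map2k1 did. At 2.5 h this share was 64.7% and at 4 h 46.3%.

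Map2k2 encodes MEK2, which phosphorylates the same kinases. By its brightest probe set (1415974_at) it read 676, 973 and 935 in knockout and 683, 799 and 819 in wild type. Every array after hCG lay above both arrays without it. The distance was 1.44-fold and 1.38-fold in knockout at 2.5 h and 4 h, and 1.17-fold and 1.20-fold in wild type. The gap between genotypes was smaller with the other scalings. Cyclic loess gave log2 differences of 0.53 and 0.43 in knockout and 0.42 and 0.46 in wild type. With centred arrays they were 0.57 and 0.48 in knockout and 0.41 and 0.50 in wild type.

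A second probe set of Map2k2 (1460636_at) read 243, 393 and 394 in knockout and 341, 371 and 557 in wild type, also higher after hCG on each array of the same genotype. Map2k2 was the member with the lowest adjusted p for the hCG response over both genotypes, at 0.151 by limma (log2 0.37, SE 0.14, higher after hCG in 4 of 4 arrays), with 0.0754 as the lowest over 7 alternatives. Between genotypes at 4 h its probe sets differed in sign, with log2 differences of 0.19 and -0.50, and the first was -0.01 with either other scaling.

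Among the parallel kinases, Mapk14 encodes p38 alpha, which answers to stress and cytokines and activates MK2 and MK3. It read 1441, 1218 and 1618 in knockout and 1432, 1166 and 1155 in wild type by its brightest probe set (1416703_at). The genotypes were within 1.04-fold of each other with no hCG and at 2.5 h, and 1.40-fold apart at 4 h, where knockout stood 1.33-fold above its own value at 2.5 h. At 4 h, 32.9% of genes over the floor differed at least as much. The other 3 probe sets over the floor gave log2 differences between -0.37 and 0.26 at that time.

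Mapk8 encodes JNK1, the kinase that phosphorylates c-Jun. By its brightest probe set (1420932_at) it read 832, 746 and 716 in knockout and 568, 632 and 720 in wild type. As deposited, the genotypes were 1.46-fold apart with no hCG, 1.18-fold at 2.5 h and within 1.01-fold at 4 h, log2 differences of 0.55, 0.24 and -0.01. These were 0.58, 0.09 and -0.21 with cyclic loess and 0.57, 0.12 and -0.21 with centred arrays. Knockout was below its starting value at both times after hCG and wild type above it. The difference with no hCG had a log2 size of 0.55, which 8.17% of genes over the floor reached.

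The 4 probe sets of Mapk8 over the floor all had knockout above wild type with no hCG, with log2 differences of 0.07 to 0.55. After hCG they did not share a direction in wild type. The second brightest (1440856_at) read 319, 242 and 212 in knockout against 282, 196 and 160 in wild type, lower after hCG in both genotypes. At 4 h in wild type it had a log2 difference of -0.82 from no hCG, against 0.34 by the brightest. By the brightest probe set and the third (1437045_at) the genotypes differed most with no hCG, and by the other 2 at 4 h. On the arrays with no hCG, 11 of 11 oocyte markers were higher in knockout than in wild type, 2 of them by at least 2-fold. Their part in the Mapk8 values was not tested.

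Downstream, Rps6ka3 encodes RSK2, a kinase that ERK1/2 bind and activate and that phosphorylates CREB and ribosomal protein S6. Its brightest probe set (1455206_at) read 1522, 1069 and 1456 in knockout and 1663, 1249 and 1309 in wild type. Both genotypes were lowest at 2.5 h, by 1.42-fold in knockout and 1.33-fold in wild type relative to no hCG. At 4 h knockout was within 1.05-fold of its starting value and wild type 1.27-fold below, log2 differences of -0.06 and -0.35. This gap between genotypes depended on the scaling. With cyclic loess the differences at 4 h were -0.12 in knockout and -0.15 in wild type, and with centred arrays -0.05 and -0.11. At 2.5 h the wild type difference of -0.41 was -0.21 with cyclic loess and -0.23 with centred arrays.

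The second probe set of Rps6ka3 (1427299_at) took another course after hCG. It read 199, 277 and 254 in knockout against 286, 476 and 661 in wild type. All 3 knockout values lay below all 3 wild type values, the closest being 277 in knockout and 286 in wild type. Relative to no hCG, the log2 difference at 2.5 h and 4 h was 0.48 and 0.35 in knockout, and 0.73 and 1.21 in wild type. Between genotypes it was -0.52, -0.78 and -1.38 at the 3 times.

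By the rule of choice the brighter probe set stands for Rps6ka3, and the 2-fold differences of the dimmer one at 4 h are not counted among the members called. Which of them follows the RSK2 transcript was not tested. Across the 5 members with several probe sets over the floor, the sign was shared in 13 of 35 pairs of a gene and a comparison. Map2k2 shared it in 6 of 7, and Mapk14 in 1 of 7. The plot by probe set shows the separation for Rps6ka3 and Mapk8.

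**Figure D2:**
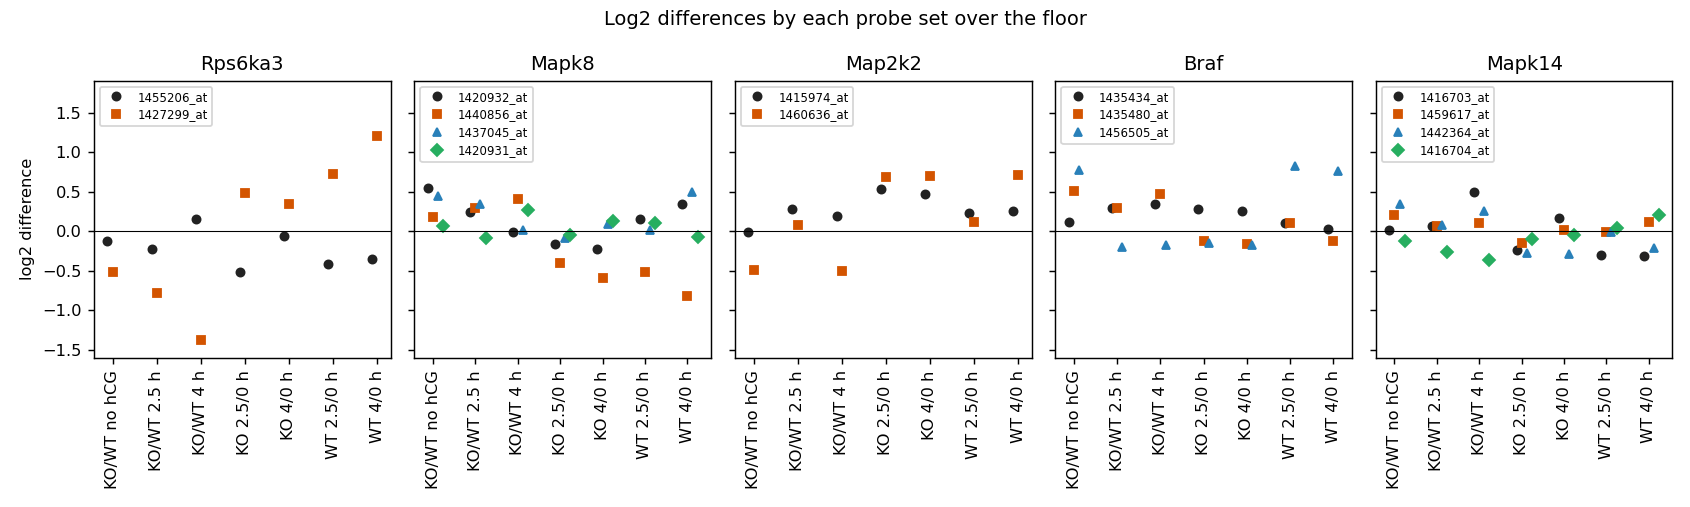
Log2 difference (vertical axis) in each of 7 comparisons (horizontal axis, KO for ERK1/2 knockout and WT for wild type) by every probe set over the floor for the 5 genes with several; black circles mark the representing probe set. For Rps6ka3 at 4 h in wild type the probe sets stand at -0.35 and 1.21, and for Mapk8 in the same comparison they spread from -0.82 to 0.50.

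Between genotypes, the number of members past the 2-fold rule was 0 of 7 with no hCG, where 0.681% of genes over the floor were higher in knockout and 0.852% lower. At 2.5 h it was 1 higher and 0 lower, against 1.44% and 2.75% of genes, and at 4 h it was 0, against 5% and 3.51%. With 7 genes, a single call gives no share to set against these. The median log2 difference of the members was 0.01, 0.24 and 0.35 at the 3 times, and that of all genes -0.03, 0.14 and 0.20. Of the 7, 6 lay above 0 at 2.5 h and 6 at 4 h, where 66.7% and 68.2% of all genes over the floor did. With cyclic loess 4 and 4 did, the sign turning for Map2k1 and Mapk14 at 2.5 h and for Map2k2 and Rps6ka3 at 4 h.

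For hCG against no hCG, 0 of 7 members met the rule in each of 4 comparisons. In knockout, 3.35% of genes over the floor were higher and 3.57% lower at 2.5 h, and 3.87% and 4.56% at 4 h. In wild type, 3.3% were higher and 1% lower at 2.5 h, and 4.91% and 9.11% at 4 h. The members' log2 differences had a median size of 0.28 in knockout at 2.5 h and 0.22 at 4 h, and of 0.23 and 0.31 for wild type. Over all genes it was 0.26 and 0.28 in knockout and 0.30 and 0.38 in wild type.

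By limma over all 6 arrays, 0 of 7 members passed an adjusted p of 0.05 for the genotype difference, against 0.0359% of genes (4 of 11153). For the hCG response 0 of 7 passed, against 10.2% of genes, and their adjusted p ran between 0.151 and 0.929. Unadjusted, 1 of 7 members was under 0.05 in each test, Mapk7 for genotype and interaction and Map2k2 for the hCG response. Of all genes tested, 17.4% (1940), 9.1% (1015) and 30.1% (3359) were under 0.05 in these tests for genotype, interaction and hCG, and against these shares 1 of 7 is not a result about the members. In simulated data of 11153 genes, 200 were changed by a known fold. The genotype test recovered 0% of genes changed 2-fold and 97.5% of genes changed 4-fold. The interaction test recovered 0% of those changed 4-fold and 97.5% of those changed 16-fold. Noise for every test was drawn from the prior variance of the additive fit, with no other effect of time or genotype. Recovery on the arrays themselves may differ from these shares. The plot of differences sets the members on the spread of all genes.

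**Figure D3:**
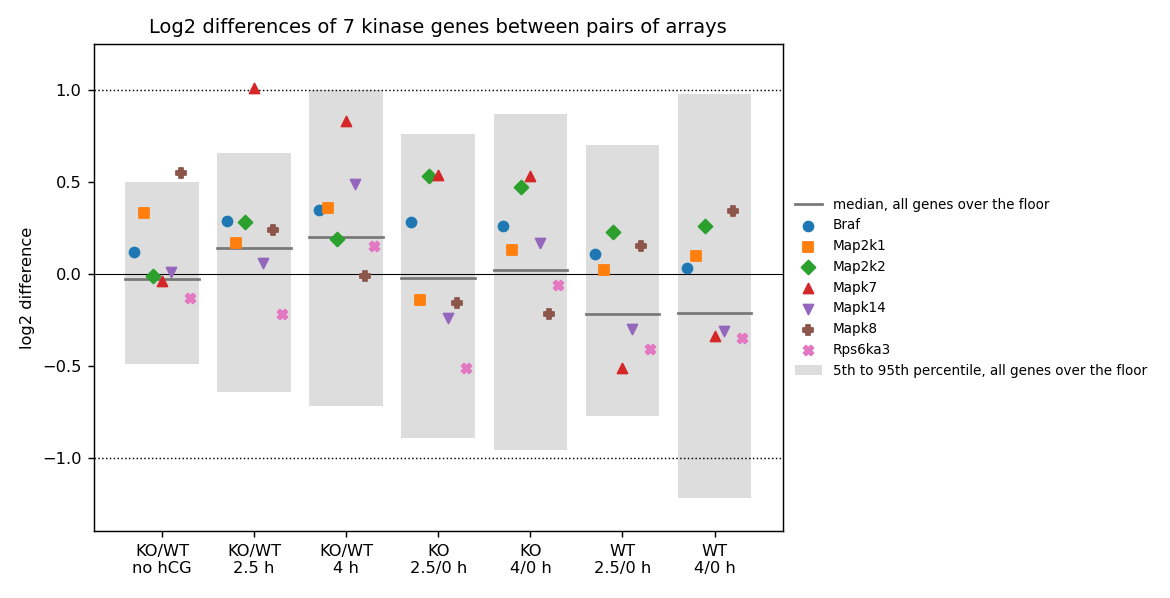
Log2 difference (vertical axis) of 7 kinase genes in 7 comparisons between pairs of arrays (horizontal axis, KO for ERK1/2 knockout and WT for wild type), 1 marker per gene. Grey bars span the 5th to 95th percentile of 11153 genes over the floor, grey lines their median and dotted lines the 2-fold rule; Mapk7 at 2.5 h (1.01) lies above its grey bar, as does Mapk8 with no hCG (0.55).

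The pattern of Mapk7, the member with the widest range, was set against 3069 other genes over the floor whose own range was at least 1 (log2). By Pearson correlation of log2 values over the 6 arrays, which share 2 genotypes and 3 times, the closest were Peg3, an imprinted gene (r = 0.98), Arrb2, which encodes the scaffold beta-arrestin 2 (r = 0.98), and Spcs3, a signal peptidase subunit (r = 0.98). Peg3 read 503, 773 and 735 in knockout and 529, 391 and 369 in wild type. Among so many genes and 6 points, high correlations are easily found, and these are given as a description.

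Other genes of the MAP kinase pathways were taken from 5 lists of 57 genes, of which 52 were measured and 45 lay over the floor. Between genotypes, 0 of 45 met the 2-fold rule with no hCG, 1 in each direction did at 2.5 h, and at 4 h knockout was higher for 5 and lower for 2. This balance depended on the scaling, an alternative chosen after seeing the data: at 2.5 h it was 0 higher and 2 lower with cyclic loess and with centred arrays, and at 4 h cyclic loess gave 4 higher and 3 lower, centred arrays 3 and 3. Of all genes over the floor, 0.681% were higher in knockout and 0.852% lower with no hCG, and 1.44% and 2.75% at 2.5 h. At 4 h these shares were 5% and 3.51%. With so few calls among 45 genes, the counts give no result about the pathways. The medians of the log2 differences of the 45 genes were -0.01, 0.25 and 0.30, and those of all genes -0.03, 0.14 and 0.20. After hCG in wild type, 1 gene lay above no hCG and 0 below at 2.5 h (3 above with cyclic loess, 2 with centred arrays), and at 4 h these numbers were 4 and 6, but 4 and 4 with either other scaling. In knockout they were 1 and 1 at 2.5 h, and 2 and 1 at 4 h. Of all genes over the floor, 3.3% were higher and 1% lower after hCG in wild type at 2.5 h. At 4 h these shares were 4.91% and 9.11%. For knockout they were 3.35% and 3.57% at 2.5 h, and 3.87% and 4.56% at 4 h. The genes named below had the widest range over the 6 arrays in their list.

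Among 7 MAP kinase-activated kinases over the floor, Mapkapk3 (MK3), a target of p38, stood out with a range of 2.59 (log2). It read 227, 320 and 385 in knockout and 453, 1371 and 1331 in wild type. Wild type was above knockout on every matched pair, by 4.28-fold at 2.5 h and 3.46-fold at 4 h, and a second probe set (1437494_at) gave log2 differences of -1.68 and -1.46 there. With no hCG the pair of values fell just short of the rule.

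Rps6ka5 (MSK1), a kinase that ERK and p38 activate and that phosphorylates histone H3, read 278, 117 and 104 in knockout and 264, 133 and 65 in wild type. It was lower after hCG in both genotypes, by 2.38-fold and 2.67-fold in knockout and by 1.98-fold and 4.06-fold in wild type. A second probe set (1431050_at) gave a smaller log2 difference in wild type at 4 h, -1.20 against -2.02 by the brightest. Mknk2 (MNK2), which phosphorylates the initiation factor eIF4E, read 1181, 2582 and 1748 in knockout and 1186, 1756 and 1300 in wild type, highest at 2.5 h in each genotype. It met the rule at 2.5 h in knockout (2.19-fold).

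Of 10 scaffold genes over the floor, 1 was at least 2-fold higher in knockout at 2.5 h, 2 were at 4 h, and 0 were lower. Ksr1, which holds RAF, MEK and ERK together, read 275, 428 and 634 in knockout and 310, 223 and 118 in wild type, so the genotypes parted in opposite directions from a common start. It was 5.37-fold higher in knockout at 4 h. Its probe sets differed in size and sign, with log2 differences of 2.43, 1.16 and -0.09 at that time. Arrb2, named above for its likeness to Mapk7, read 257, 340 and 398 in knockout and 231, 161 and 175 in wild type, a difference of 2.11-fold at 2.5 h and 2.27-fold at 4 h. Its log2 differences of 1.08 and 1.19 were 0.97 and 1.03 with cyclic loess and 0.96 and 0.98 with centred arrays, and a second probe set (1451987_at) gave 0.84 and 0.71. Mapk8ip3, a JNK scaffold, stayed within 1.43-fold between genotypes.

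Among 5 other MAP kinases over the floor, Mapk10 (JNK3) met the rule at 4 h. It read 170, 227 and 569 in knockout and 159, 142 and 139 in wild type, 4.09-fold apart at 4 h, and a second probe set (1448342_at) gave the same log2 difference of 2.03. Its wild type differences after hCG (-0.16 and -0.19) were near 0 with other scalings, where their signs were not stable. Mapk9 (JNK2) was lower after hCG in both genotypes, at 850, 459 and 541 in knockout and 942, 537 and 378 in wild type. Nlk, a MAP kinase-like kinase of the Wnt pathway, was 1.79-fold higher in knockout at 4 h (2259 in knockout against 1262 in wild type). Its log2 difference of 0.84 was 0.63 with cyclic loess and 0.64 with centred arrays. Its dimmer probe sets gave 1.02 (1419112_at), past the size of the rule, and 0.87 (1456467_s_at). The 4 remaining genes of that list, Mapk4, Mapk11, Mapk13 and Mapk15, were under the floor.

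Upstream, 11 genes of RAS, RAF and adaptors lay over the floor, and 1 was at least 2-fold higher in knockout at 4 h and 0 lower. That gene was Gab1, a docking protein of the EGF receptor, at 1131, 1165 and 1101 in knockout against 1159, 712 and 512 in wild type. Its log2 difference at 4 h was 1.10 as deposited but 0.90 with either other scaling and 0.73 by a second probe set (1417693_a_at), short of the rule. Grb2, the adaptor that links receptors to RAS, read 312, 449 and 473 in knockout and 317, 575 and 694 in wild type, but a second probe set (1418508_a_at) showed little of this, with a log2 difference of 0.17 at 4 h in wild type against 1.13. Sos2, a RAS exchange factor, read 532, 503 and 616 in knockout and 542, 950 and 1103 in wild type. At 4 h its log2 difference between genotypes was -0.84 as deposited and -1.04 with either other scaling, which turns the count of this list at 4 h to 0 higher and 1 lower. These 3 genes were within 1.02-fold between genotypes with no hCG.

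Of 12 further MAP kinase kinase kinases and MEKs over the floor, the rule was met by 1 in each direction at 4 h. Map3k7 (TAK1), which feeds the p38 and JNK branches, read 874, 777 and 890 in knockout and 808, 513 and 364 in wild type. Its other 3 probe sets over the floor gave log2 differences between genotypes at 4 h of 0.14, 0.05 and -0.24, against 1.29 by the brightest. Map3k2 (MEKK2), an activator of the MEK5 and ERK5 branch, read 352, 371 and 477 in knockout against 411, 469 and 991 in wild type, 2.08-fold lower in knockout at 4 h. Map2k6, a MEK of p38, was lower after hCG in both genotypes, at 109, 77 and 57 in knockout and 151, 87 and 52 in wild type, where the last values of each lie under the floor.

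**Figure D4:**
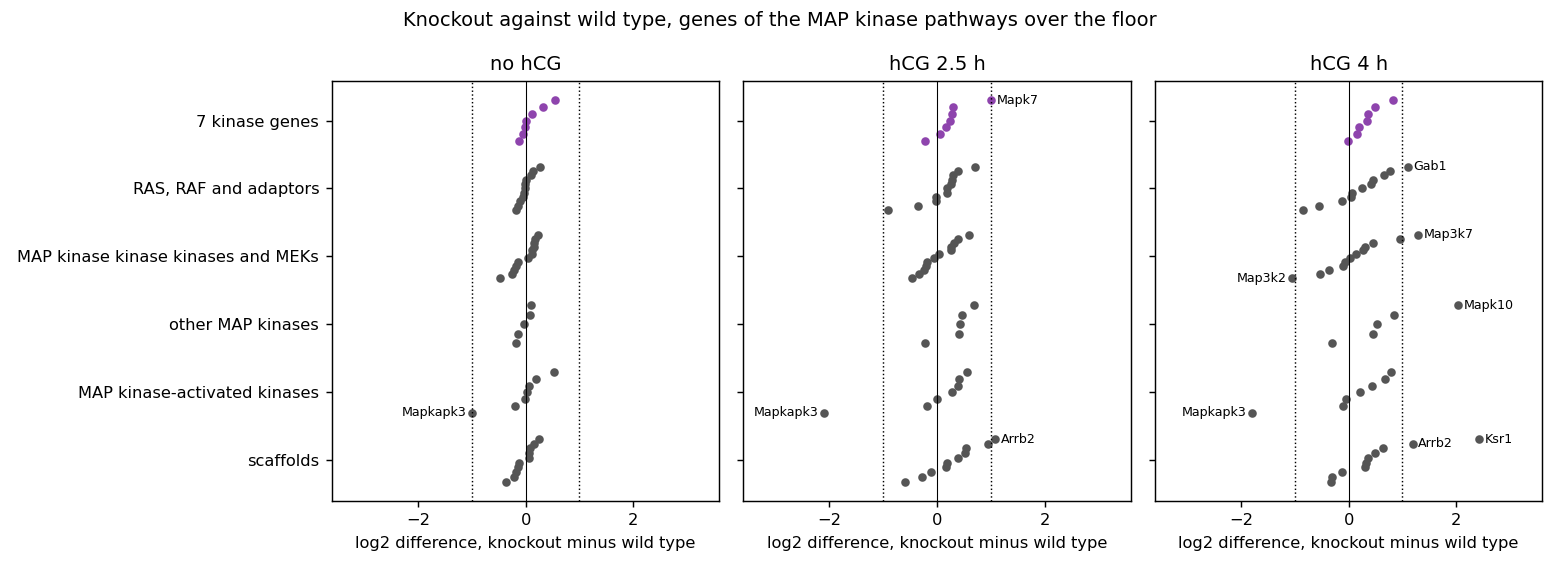
Log2 difference, knockout minus wild type (horizontal axis), with no hCG, at 2.5 h and at 4 h for the 7 kinase genes (purple, top row) and 45 genes in 5 lists of the MAP kinase pathways (grey), 1 point per gene over the floor; dotted lines mark 2-fold and genes whose rounded log2 size is at least 1 are named. Few points pass the lines, with Mapkapk3 on the left at 2.5 h and 4 h and Ksr1 (2.43) and Mapk10 (2.03) on the right at 4 h.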

How the data were processed

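Each of 6 arrays has an intensity for 45101 probe sets. The authors made these intensities with RMA in the affy package according to the submitters' processing notes, with versions not given in the sources used here. Although log2 values had been planned for, the intensities are linear and whole, between 9 and 59425 with array medians of 54 to 55, so log2 was taken of the deposited intensity; rounding leaves coarse steps in dim probe sets. Quantile normalization in RMA hides changes in total RNA.

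Of the probe sets, 34958 had 1 gene symbol, 932 had several and were left out, and 9211 had none. By gene ID, 34754 symbols matched a RefSeq table of GRCm38.p6 and 0 changed. Members and lists were chosen with earlier results of these data known. The text names all members, the 3 genes of widest range in each pathway list, and the 3 genes most like the member of widest range. Samples were grouped by their titles, and 7 comparisons between pairs of arrays used the 2-fold rule. Using limma 3.58.1 in R 4.3.3, an additive fit (2 residual degrees of freedom, prior 3.99) and a fit of 4 cells (prior 2.97) ran on 11153 genes with Benjamini-Hochberg adjustment at 0.05, tested on simulated data. Alternatives changed the probe set, scaling, floor, size threshold, offset, prior or the times used.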

Additional observations from a re-analysis of the deposited data

Results flagged for a closer look

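For Mapk7 the hCG response of knockout minus that of wild type was 0.96 (log2, mean of 2.5 h and 4 h), because both arrays after hCG lay above no hCG in knockout and both lay below it in wild type. For Mapk8 it was -0.44, with both arrays below no hCG in knockout and both above it in wild type by the brightest probe set, while the second brightest was lower after hCG in both genotypes. The differences were drawn out for these opposite directions alone. In the limma interaction test, which takes the 2 times after hCG as repeats, their adjusted p-values were 0.535 and 0.573, and 0 of 11153 genes passed while 1015 had an unadjusted p under 0.05.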

How the results depend on the processing

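The count of 1 member past the 2-fold rule between genotypes at 2.5 h became 0 with cyclic loess, with centred arrays, with 16 added to each intensity and with the second brightest probe set, where Mapk7 has none. At 4 h the count of 0 became 1 with the second brightest probe set (Rps6ka3) and 1 at a threshold of 1.5-fold (Mapk7). In wild type at 4 h it became 1 with the second brightest probe set (Rps6ka3). The other counts did not change with any alternative run. For the genotype difference over the times, 1 member (Mapk7) passed limma without the arrays with no hCG and 0 with each of 7 other alternatives; for the hCG response and the interaction 0 members passed in any.

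Over all genes, limma called 4 for the genotype difference, but 471, 16 and 245 without the 0 h, 2.5 h or 4 h pair, 8 with a trended prior and 0 with the mean of probe sets, cyclic loess, no floor or the offset. For the hCG response it called 1135, but 701 with the mean of probe sets, 697 with cyclic loess, 432 with no floor and 736 without the 2.5 h pair, while it called 1462 without the 4 h pair. The split of genes called by size at 4 h was, between knockout and wild type, 558 higher and 392 lower, but 346 and 469 with cyclic loess and 306 and 498 with centred arrays. At 2.5 h it was 161 and 307, but 117 and 381 or 110 and 380. In wild type it was 368 and 112 at 2.5 h, but 452 and 44 or 473 and 32, and 548 and 1016 at 4 h, but 676 and 650 or 740 and 530. Of 49 member differences, all 49 moved by less than 1.5-fold under either scaling and the offset, while 2 of 49 moved by more with the mean of probe sets and 7 of 35 with the second brightest. The labels carry no replicate numbers, so there was no replicate block to fit; the genotype test is paired by time, with 1 knockout and 1 wild type array at each of 3 times. The cause of these changes was not tested.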
